A study of Homo sapiens with 4 samples.

Results

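The comparison is between the 2 non-targeting control libraries of the series, R-U87MG si-NC and U87MG si-NC, and asks how TMZ-resistant U87MG cells differ from parental U87MG cells when no gene has been silenced. They are 2 of 4 libraries, and the gene IDs that the tables share were used, with the 2 si-NC libraries scaled together. Of 58213 shared IDs, 13349 had a mean of at least 1 CPM, a count relative to the total of its library, in the pair of libraries and were compared. U87MG is an established human glioblastoma (GBM) line. R-U87MG are U87MG cells made resistant to temozolomide (TMZ), the alkylating drug given for GBM, and were maintained in 50 μM TMZ. Both lines received the same pool of non-targeting control siRNAs (si-NC), and total RNA was taken 72 h after transfection and sequenced with a strand-specific kit. The other 2 libraries, R-U87MG si-HDAC6 and U87MG si-LINC00461, are not part of this comparison and served as a second look at each line. Each carries a knockdown of its own, and the labels do not say whether it came from a separate culture. There was 1 library per line and treatment, no time or dose series, and no p-value is given. Cell line, maintenance in TMZ, the days in culture and the preparation of the library cannot be told apart in this design.

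TMZ adds methyl groups to DNA. The methyl group on guanine is removed by MGMT, and where it stays it mispairs and is read by mismatch repair, whose futile cycles kill the cell, while other methylated bases are removed by base excision repair. GBM cells are also known for a hypoxia response run by HIF, which turns on glucose uptake, glycolysis and matrix cross-linking, and for an antioxidant response run by NRF2, which turns on cystine uptake and the glutathione and thioredoxin systems.

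Levels below are normalised CPM, in which the library size was first scaled by the trimmed mean of M-values (TMM), within the si-NC pair and within the other pair separately. Levels from different pairs are therefore not on a common scale, and where they are set side by side the reading is approximate. A log2 ratio is that of R-U87MG si-NC over U87MG si-NC with 0.5 fragments added to each count, so it understates the change of genes with few fragments, and the range given with it is an exact 95% interval that covers counting error only. A gene was counted as higher or lower at 2-fold. A gene near 0 in either si-NC library could reach the mean of 1 CPM only through the other. Its direction was then fixed by that filter. The libraries held 16639551 fragments (R-U87MG si-NC) and 20027865 fragments (U87MG si-NC), and 12596071 and 17777046 in R-U87MG si-HDAC6 and U87MG si-LINC00461. The limit that a count of 0 allows, 3 fragments per library, was 0.165 and 0.164 normalised CPM in the si-NC libraries.

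In R-U87MG 1494 genes (11.2% of those compared) were higher and 2008 (15%) were lower. The lower genes lay further out, with 226 past 16-fold against 41 of the higher genes. Of the protein-coding genes 1215 of 11809 were higher and 1752 lower, and of the long noncoding RNAs (lncRNAs) 120 of 801 were higher and 160 lower. The interval lay wholly beyond 2-fold for 846 higher and 1445 lower genes. The share of higher calls depended on the scaling. With total counts in place of TMM the median log2 ratio of all compared genes rose from 0.02 to 0.28, and 2399 genes were higher and 1494 lower. In R-U87MG si-HDAC6 against U87MG si-LINC00461, 15.9% of the same genes were called higher and 16.3% lower. The same call was made there for 992 of the 1494 higher genes and for 1456 of the 2008 lower genes. The call was opposite for 17 of the higher and 11 of the lower genes. Levels of the R-U87MG and U87MG libraries did not overlap for 1401 of the higher and 1890 of the lower genes. These counts set levels of separately scaled pairs side by side and are approximate. Over all 13349 compared genes, called or not, both R-U87MG libraries lay above both U87MG libraries for 37.6% and below them for 35.9%, and called genes had been chosen on 2 of these 4 libraries, so an absence of overlap is common here.

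**Figure D1:**
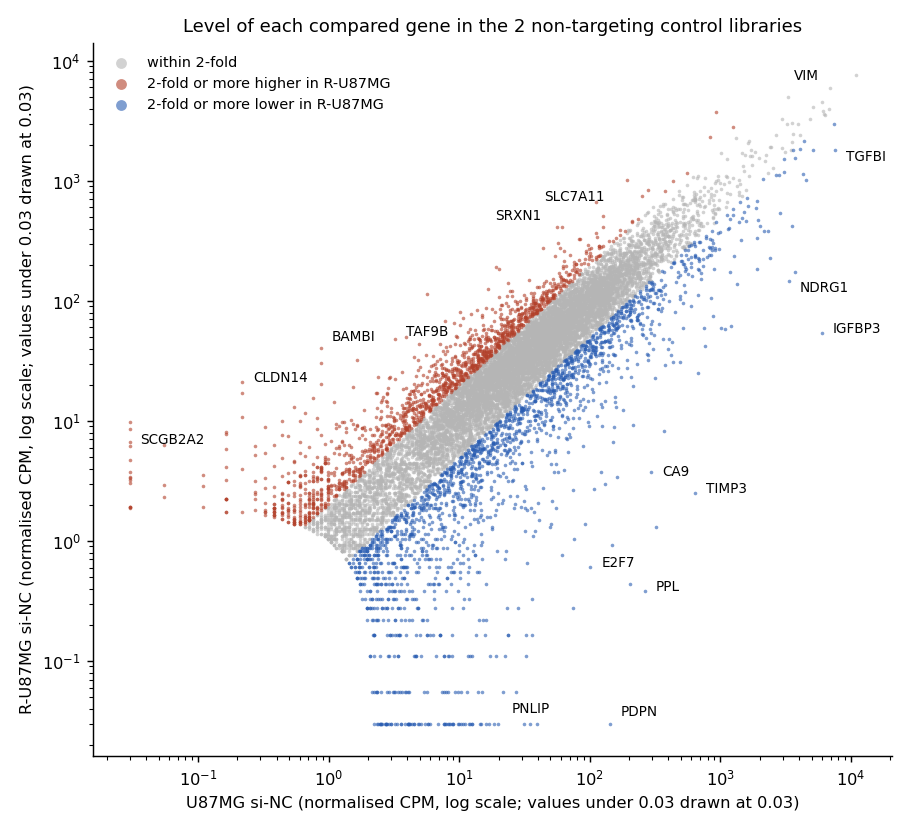
Normalised CPM of each compared gene in U87MG si-NC (x axis) and R-U87MG si-NC (y axis), both on log scales, with XIST and genes of the Y chromosome left out; red points were at least 2-fold higher and blue points at least 2-fold lower in R-U87MG. The blue points reach much lower than the diagonal, down to PDPN at 142 against 0, while the largest red differences lie at low levels.

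Before the gene groups, the libraries were checked against their labels. VIM and CD44, which GBM lines express, were at 5990 and 1616 normalised CPM in R-U87MG si-NC and at 6933 and 1758 in U87MG si-NC, whereas the astrocyte genes GFAP and AQP4 were at or near 0 in all 4 libraries. CDKN2A had 1 fragment in R-U87MG si-NC and 5 in U87MG si-NC, CDKN2B 1 and 0, and its neighbour MTAP 4 and 4. HDAC6 was at 16.2 and 4.81 in R-U87MG si-NC and si-HDAC6, and LINC00461 at 19.9 and 4.54 in U87MG si-NC and si-LINC00461, so each targeted gene was lower in the library labelled with its siRNA. Some genes that every cell uses, among them RPS18, NDUFA3, NDUFA6 and TAP1, were listed at 0 in all 4 libraries, so a 0 in these tables may also be a failed estimate.

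Genes of tissues that the labels do not name differed in level between the libraries. They were listed after their levels were seen, and most passed the filter on low values through the line where they were high, so their direction was fixed by that choice and the values are a description. The summed level of 26 genes of the exocrine pancreas was 240 normalised CPM in U87MG si-NC and 513 in U87MG si-LINC00461, against 12.2 and 7.97 in R-U87MG si-NC and si-HDAC6. PNLIP (pancreatic lipase) was at 39.5 and 91.6 in the U87MG libraries and at 0 in both R-U87MG libraries, and 21 of the 26 genes were at 0 in each R-U87MG library. The 16 genes of breast epithelium and fat had summed levels of 37.4 and 25.9 in R-U87MG si-NC and si-HDAC6 and 1.86 and 1.55 in U87MG si-NC and si-LINC00461. SCGB2A2 (mammaglobin) was at 8.50 and 6.68 in the R-U87MG libraries and at 0 in both U87MG libraries. RNAs with a structural role also differed. RN7SL1, the RNA of the signal recognition particle, was at 2.63 and 2.23 in the R-U87MG libraries and 74.6 and 125 in the U87MG libraries, and the nuclear lncRNA MALAT1 was at 173 and 194 against 1180 and 958. Their part in the differences between the lines was not tested. Without all of these genes and the clustered histone genes 1487 genes were higher and 1983 lower.

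**Figure D2:**
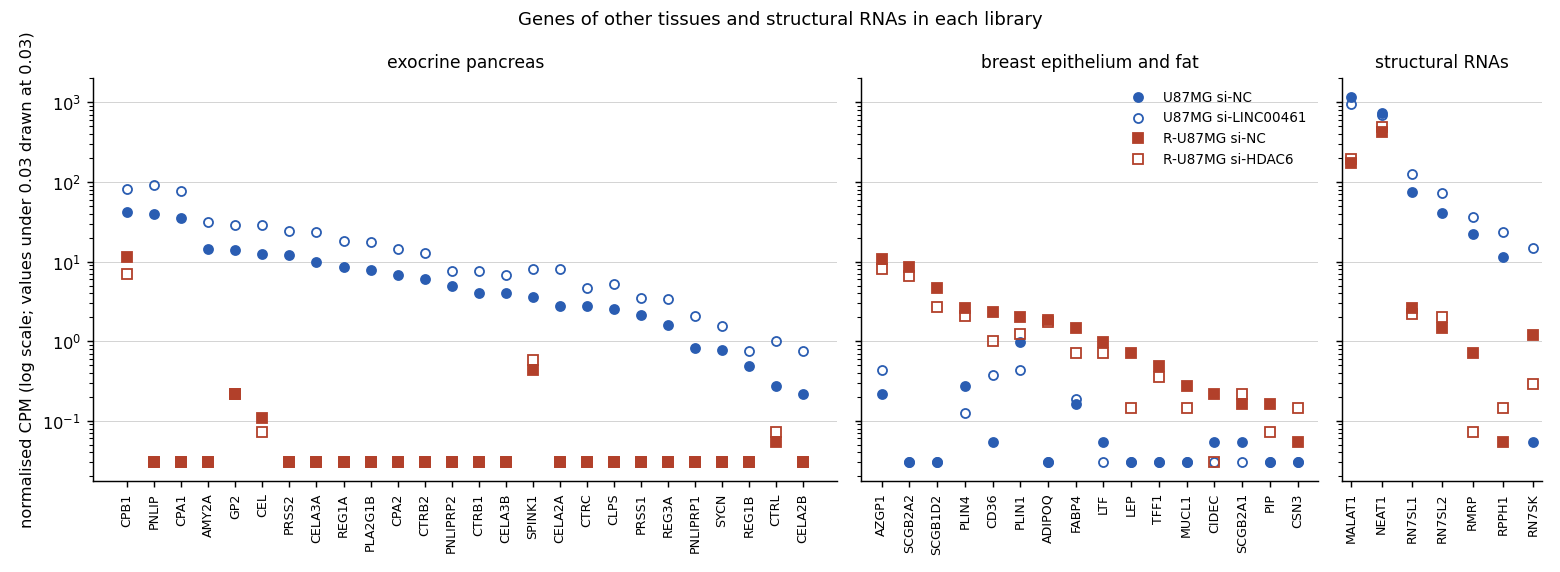
Normalised CPM (y axis, log scale, values under 0.03 drawn at 0.03) in the 4 libraries of genes of the exocrine pancreas, of breast epithelium and fat, and of structural RNAs; circles are U87MG, squares R-U87MG, filled symbols si-NC. PNLIP and CPA1 sit at 39.5 and 34.9 in U87MG si-NC and at 0 in R-U87MG si-NC, and SCGB2A2 shows the reverse at 8.50 and 0.

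Most hypoxia target genes were lower in R-U87MG. Of 33 such genes, all compared, 30 were called lower and none higher, against 15% of all compared genes lower, and the median log2 ratio was -2.71. The second look, R-U87MG si-HDAC6 against U87MG si-LINC00461, called 28 of the same genes lower, with a median of -2.32. CA9, the cell surface carbonic anhydrase that exports acid, was at 3.73 and 3.52 normalised CPM in R-U87MG si-NC and si-HDAC6 and at 296 and 243 in U87MG si-NC and si-LINC00461. This was a 78.8-fold difference between the si-NC libraries, a log2 ratio of -6.30 (-6.68 to -5.97). EGLN3, a prolyl hydroxylase that marks HIF for degradation, had 1 fragment in R-U87MG si-NC and 180 in U87MG si-NC, with a log2 ratio of -6.91 (-12.80 to -4.99). NDRG1, a stress-responsive gene, was at 147 and 164 in the R-U87MG libraries and at 3328 and 1903 in the U87MG libraries, for a log2 ratio of -4.50 (-4.56 to -4.45). LOXL2, which cross-links collagen, was at 174 and 157 against 3705 and 3048. VEGFA, the angiogenic growth factor, was at 543 and 567 against 2864 and 2823. Those not called included HK1 (log2 ratio -0.14) and STC2 (-0.997, just inside 2-fold). The hypoxia list and the lists below were chosen with earlier results of these data known, so their shares are a description.

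HIF binds DNA at a core that includes ACGTG. The promoters of CA9, ANKRD37, ALDOC and BNIP3 are shown because these genes were lower in both comparisons and their windows hold that core. The sequences are RefSeq's, build GRCh38.p14, from 250 bases before to 50 after the start, 5′ to 3′ on the strand of the gene, with ACGTG on either strand in capitals. Where the capitals read CACGTG the core lies on both strands and the copies overlap.
CA9: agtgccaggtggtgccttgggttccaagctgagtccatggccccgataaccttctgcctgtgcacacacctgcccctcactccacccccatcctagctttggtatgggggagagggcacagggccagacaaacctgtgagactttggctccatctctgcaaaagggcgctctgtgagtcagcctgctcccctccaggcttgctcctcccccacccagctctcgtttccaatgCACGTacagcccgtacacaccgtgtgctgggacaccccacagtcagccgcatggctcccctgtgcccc
ANKRD37: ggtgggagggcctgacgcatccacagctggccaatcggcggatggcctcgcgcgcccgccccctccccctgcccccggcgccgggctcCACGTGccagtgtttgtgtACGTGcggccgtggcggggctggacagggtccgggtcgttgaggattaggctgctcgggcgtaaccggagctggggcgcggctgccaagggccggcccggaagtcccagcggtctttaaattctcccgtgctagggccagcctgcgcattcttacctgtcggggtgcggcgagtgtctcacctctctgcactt
ALDOC: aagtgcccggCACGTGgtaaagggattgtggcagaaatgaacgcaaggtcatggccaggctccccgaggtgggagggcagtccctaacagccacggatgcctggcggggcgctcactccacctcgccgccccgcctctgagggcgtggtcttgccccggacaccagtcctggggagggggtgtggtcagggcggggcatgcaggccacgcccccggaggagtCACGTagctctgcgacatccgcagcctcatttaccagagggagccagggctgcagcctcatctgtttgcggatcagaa
BNIP3: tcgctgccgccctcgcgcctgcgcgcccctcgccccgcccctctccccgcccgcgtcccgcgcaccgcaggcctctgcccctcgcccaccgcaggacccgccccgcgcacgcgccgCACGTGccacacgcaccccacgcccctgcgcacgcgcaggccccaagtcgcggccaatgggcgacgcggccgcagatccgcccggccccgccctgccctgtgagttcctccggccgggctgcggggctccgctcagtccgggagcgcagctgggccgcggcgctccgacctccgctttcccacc
These windows are chr9:35673678-35673977 on the plus strand, chr4:185396591-185396890 on the plus strand, chr17:28576846-28577145 on the minus strand and chr10:131981874-131982173 on the minus strand. In CA9 the 1 match lies shortly before the start, on the opposite strand, and ANKRD37 and ALDOC hold 3 matches each, counting both strands. ANKRD37 was at 1.97 and 2.59 normalised CPM in the R-U87MG libraries and 11.1 and 18.8 in the U87MG libraries, and BNIP3, a mitophagy receptor, at 58.6 and 63.4 against 1088 and 602. A promoter was matched for 26 of the 33 hypoxia genes, and 14 of these held ACGTG, against 21.4% of all 35116 promoters of that length and 26.4% of the 10038 matched promoters of compared genes. Fewer than 80% of the list had a promoter, so the shares are void as a comparison, and a match is a description of letters and not of binding.

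Glycolysis followed the same direction. Of 20 glycolysis genes compared 16 were lower and none higher, against 15% of all compared genes lower, with a median log2 ratio of -1.38. SLC16A3, which exports lactate, was at 59.6 and 58.5 normalised CPM in R-U87MG si-NC and si-HDAC6 and at 746 and 639 in the U87MG libraries, for a log2 ratio of -3.65 (-3.74 to -3.56). SLC2A1, the glucose transporter GLUT1, was at 75.3 and 91.9 against 873 and 476, with a log2 ratio of -3.53 (-3.62 to -3.46). ALDOC, an aldolase, was at 12.2 and 15.7 against 180 and 196. LDHA and PGK1, which act late in the pathway, had log2 ratios of -2.16 and -2.52. The 4 genes that were not called were PKM (-0.84), HK1 (-0.14), PFKM (0.32) and LDHB (0.96). The lists of hypoxia targets and glycolysis share genes such as ALDOC and SLC2A1, so they are not separate counts. In R-U87MG si-HDAC6 against U87MG si-LINC00461 10 of the 20 were called lower and the median was -1.09. GAPDH, with a log2 ratio of -1.32 between the si-NC libraries, was at -0.23 there.

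**Figure D3:**
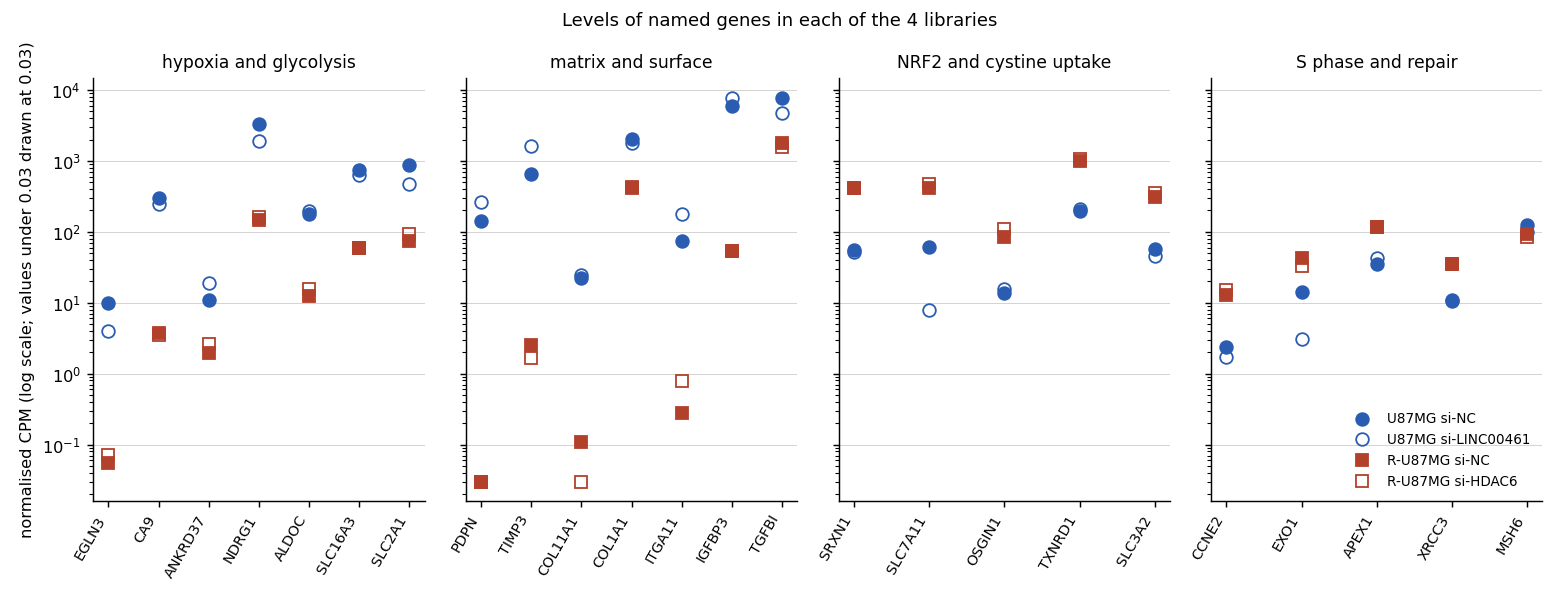
Normalised CPM (y axis, log scale, values under 0.03 drawn at 0.03) of named genes in each of the 4 libraries, in 4 groups; circles are U87MG, squares R-U87MG, and filled symbols si-NC. Each R-U87MG point of CA9 and TIMP3 lies under each U87MG point, and each R-U87MG point of SRXN1 and TXNRD1 lies above, while the points of MSH6 lie together.

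Several matrix and adhesion genes were among those furthest down. PDPN, the surface sialoglycoprotein podoplanin (ENSG00000162493, chr1:13583465-13617957 in GRCh38), was listed at 0 in both R-U87MG libraries and at 142 and 259 normalised CPM in the U87MG libraries. The end of its interval nearest 0 was a log2 ratio of -9.45, if the 0 is a true count. TIMP3, a metalloproteinase inhibitor, was at 2.52 and 1.65 in the R-U87MG libraries and at 643 and 1634 in the U87MG libraries, with a log2 ratio of -7.98 (-8.44 to -7.58). IGFBP3, which binds insulin-like growth factors, was at 54.2 and 53.4 against 5997 and 7788, a 111-fold difference between the si-NC libraries. PPL, a desmosomal plakin, was at 0.384 and 0.216 against 264 and 167. ITGA11, a collagen receptor, was at 0.274 and 0.790 against 74.5 and 177.

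As groups, 12 of 24 collagens were lower and 4 higher (median log2 ratio -1.04), and 11 of 25 integrins and laminins were lower and 3 higher (median -0.91). Of all compared genes 15% were lower and 11.2% higher. After centring the ratios in bins of GC content and length, the median of collagens was -0.74 and that of integrins and laminins -0.64. COL1A1, the main chain of type I collagen, had a log2 ratio of -2.25 (-2.29 to -2.22), whereas COL9A3, a cartilage collagen, had 53 fragments in R-U87MG si-NC and 1 in U87MG si-NC, with a log2 ratio of 5.16 (3.19 to 11.06). COL9A3 passed the filter on low values through R-U87MG alone, so its direction was fixed by the filter. LAMA5, a basement membrane laminin, was at 45.5 and 64.8 against 426 and 425. Fibroblast markers were split, with 3 of 6 lower (COL1A1, COL1A2 and PDGFRB) and 3 of 6 higher (DCN, LUM and COL3A1). In the other libraries none was called higher and 4 were called lower, among them DCN at a log2 ratio of -1.93. Their summed level was 1064 and 1048 in the R-U87MG libraries and 4060 and 4384 in the U87MG libraries. In bulk RNA, fewer cells of a type and less RNA per cell cannot be told apart. Of 34 genes of the mesenchymal state of GBM, 10 were lower and 2 higher, with a median of -0.45. CEBPD, a regulator of that state, was lower at 3.73 and 3.74 against 56.8 and 42.8, and TGFBI, a secreted matrix protein, at 1807 and 1559 against 7603 and 4655. The genes of that list that were higher were FOSL1 (log2 ratio 1.07) and ZEB1 (1.25), both transcription factors, and VIM, at -0.21, was not called.

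Other surface and immune groups were also lower more often than higher, as were all compared genes (15% lower and 11.2% higher). Of 27 clustered protocadherins 16 were lower and none higher (median log2 ratio -1.27). These genes share exons and sequence with their neighbours, so their single values are uncertain. In the other libraries 20 of the 27 were at least 2-fold lower, and 15 were lower in both comparisons. Shared sequence is the same in every library, so this repeat does not settle the uncertainty. Of all 49 listed, 13 were at 0 in R-U87MG si-NC and 1 in U87MG si-NC, so members could pass the filter through U87MG alone. Of 35 interferon-stimulated genes 13 were lower and 2 higher (median -0.61). In the other libraries 11 of them were lower and 1 higher, with a median of -0.37. At a mean CPM of at least 5 the median between the si-NC libraries was -0.26. Of 12 genes in the HLA class II list 7 were compared, while 4 of the 12 were at 0 in R-U87MG si-NC and 3 in U87MG si-NC. Of the 7 compared 6 were lower (median -1.62), of which 3 were at least 2-fold lower in the other libraries. CD74, the invariant chain, was at 64.9 and 53.7 normalised CPM in the R-U87MG libraries and 243 and 89.4 in the U87MG libraries. Of 42 receptor tyrosine kinases 23 were compared, of which 9 were lower and 2 higher (median -0.47). At a mean CPM of at least 5 their median was -0.29. EPHA3 was listed at 0 in both R-U87MG libraries and at 12.6 and 2.30 in the U87MG libraries. EPHA3 and TEK passed the filter through U87MG alone, so their direction was fixed by it. PDGFRB was at 23 and 23.1 against 174 and 435. EGFR, at 363 and 329 against 656 and 304, was not called. Its log2 ratio was -0.85 between the si-NC libraries and 0.11 in the other pair. Of 29 cancer-testis antigens 5 passed the filter on low values, of which 4 were lower and 1 higher. MAGEC1, MAGEC2 and MAGEA3 passed it through U87MG alone, so their direction was fixed by the filter. MAGEC1 and MAGEC2 were listed at 0 in both R-U87MG libraries and at 10.2 and 7.71 in U87MG si-NC, whereas MAGEA1 was at 65.8 and 68.2 in the R-U87MG libraries and 9.19 and 6.96 in the U87MG libraries, a log2 ratio of 2.84 (2.60 to 3.08).

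Some NRF2 target genes were higher. Of 26 compared, 10 were called higher, 1 lower and 15 neither, against 11.2% of all compared genes higher, and the median log2 ratio was 0.65. SRXN1, which repairs oxidised peroxiredoxins (ENSG00000271303, chr20:646615-653370), was at 409 and 410 normalised CPM in R-U87MG si-NC and si-HDAC6 and at 55.7 and 52.3 in the U87MG libraries, a log2 ratio of 2.87 (2.78 to 2.97). TXNRD1, thioredoxin reductase, was at 1008 and 1056 against 193 and 211, with a log2 ratio of 2.38 (2.33 to 2.44). OSGIN1, induced by oxidative stress, was at 84.6 and 111 against 13.8 and 15.4. SLC7A11 and SLC3A2 form the cystine importer xCT. SLC7A11 was at 415 and 475 against 61.1 and 7.90, with a log2 ratio of 2.76 (2.67 to 2.86), and SLC3A2 was at 305 and 354 against 57.3 and 45.0, with a log2 ratio of 2.41 (2.32 to 2.51). NQO1 and HMOX1, widely used NRF2 reporters, had log2 ratios of 2.01 and 2.03. NFE2L2, which encodes NRF2, and its inhibitor KEAP1 were not called at 0.69 and 0.48, and neither were GCLC (0.56) and GCLM (0.75) of glutathione synthesis. The lower gene was AKR1B1, an aldose reductase, at -1.26.

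Of 43 S phase genes 23 were higher and none lower (median log2 ratio 1.01), and of 54 G2/M genes 10 were higher and none lower (median 0.76), where 11.2% of all compared genes were higher. CCNE2, the cyclin that starts S phase, was at 12.8 and 15.2 normalised CPM in the R-U87MG libraries and 2.35 and 1.74 in the U87MG libraries, for a log2 ratio of 2.43 (1.97 to 2.95). RRM2, the small subunit of ribonucleotide reductase, was at 367 and 322 against 111 and 27.5. PCNA, the replication clamp, was at 213 and 177 against 63.3 and 32.8. TOP2A, the topoisomerase of dividing cells, was at 320 and 239 against 206 and 32.5, and at a log2 ratio of 0.63 (0.57 to 0.69) was not called. MKI67, the proliferation marker, at 0.55, was not called either. The summed level of the S phase genes was 1787 normalised CPM in U87MG si-NC and 750.03 in U87MG si-LINC00461, and that of the G2/M genes 5098 and 1816, so the second U87MG library does not repeat the level of the first. The median log2 ratios of R-U87MG si-HDAC6 over U87MG si-LINC00461 were 2.41 and 2.79. E2F7, a repressor of the same programme, went the other way at 0.603 and 1.51 against 101.2 and 80.9, a log2 ratio of -7.33 (-8.39 to -6.55).

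DNA repair bears most directly on an alkylating drug. MGMT had 6 fragments in R-U87MG si-NC and 2 in U87MG si-NC, and 0 and 1 in the other libraries, so it lay near the limit of detection in both lines and no difference could be read. Of 10 compared genes of alkylation damage reversal and mismatch repair 1 was higher and none lower. Of all compared genes 11.2% were higher and 15% lower, so the genes are given as single values. MSH6, which reads mispaired bases, was at 94.5 and 83.5 normalised CPM in the R-U87MG libraries and 124 and 100 in the U87MG libraries, with a log2 ratio of -0.39 (-0.48 to -0.30). PMS2 was at 12.4 and 11.6 against 9.57 and 13.6, with log2 ratios of 0.37 between the si-NC libraries and -0.22 in the other pair. The gene of that list called higher was EXO1, the exonuclease of mismatch repair, at 42.4 and 32.4 against 14.3 and 3.11, a log2 ratio of 1.57 (1.37 to 1.78).

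In base excision repair 2 of 18 genes were higher and 1 lower, shares no larger than the 11.2% and 15% of all compared genes, so the 3 genes are given as single values. APEX1, the endonuclease that cuts abasic sites, was at 117 and 117 normalised CPM against 35.6 and 42.1, a log2 ratio of 1.72 (1.59 to 1.85), and NEIL3, a glycosylase of dividing cells, was at 26.9 and 21.6 against 8.81 and 1.80. MPG, the glycosylase that removes methylated purines, was the lower gene, at 18.3 and 19.9 against 48.8 and 48.8, a log2 ratio of -1.42 (-1.60 to -1.23). Of 27 genes of homologous recombination and the Fanconi pathway, which repair double-strand breaks and crosslinks, 8 were higher and none lower (median 0.82). The 3 furthest were XRCC3 at 35.1 and 35.1 against 10.5 and 10.8, FANCM at 17.7 and 14.6 against 6.24 and 3.54, and PALB2 at 49.97 and 45.9 against 18.4 and 23.6. BRCA1 had a log2 ratio of 1.35, although its counts were not whole fragments, so reads may be shared with another annotated gene.

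Of 11 drug efflux transporters 2 were higher and 4 lower, where 11.2% and 15% of all compared genes were. ABCG2, known as breast cancer resistance protein, was at 14.8 and 11.4 normalised CPM in the R-U87MG libraries and 2.57 and 0.995 in the U87MG libraries, a log2 ratio of 2.51 (2.07 to 3.0), and ABCC2 was higher at 1.64. ABCB4 had 3 fragments in R-U87MG si-NC and 64 in U87MG si-NC, with a log2 ratio of -4.20 (-6.73 to -2.80), and ABCA2 was at 32.4 and 37.5 against 191 and 198. ABCB4 passed the filter on low values through U87MG alone, so its direction was fixed by the filter. Of the histone deacetylases 2 of 16 were higher and 2 lower, close to the shares of all compared genes. HDAC6, the target of the study's siRNA, was lower in R-U87MG si-NC than in U87MG si-NC at 16.2 against 35.5, a log2 ratio of -1.13 (-1.33 to -0.93). LINC00461 was at 8.45 against 19.9, a log2 ratio of -1.23 (-1.51 to -0.96), with 154 and 363 fragments.

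BAMBI, a decoy receptor that dampens TGF-beta signalling (ENSG00000095739, chr10:28677342-28682939), was at 40.6 and 49.7 normalised CPM in the R-U87MG libraries and 0.875 and 1.31 in the U87MG libraries, a log2 ratio of 5.49 (4.83 to 6.35). DKK1, a secreted Wnt inhibitor, was at 15.5 and 15.2 against 0.766 and 0.808, while its relative DKK3 was at 0.768 and 0.718 against 61.5 and 14.8. CLDN14, a tight junction claudin, was at 21.0 and 25.4 against 0.219 and 0.808, and HS3ST2, a heparan sulfate sulfotransferase, had a log2 ratio of 5.08 (4.42 to 5.94). TAF9B, a subunit of the transcription factor TFIID, was at 48.0 and 41.4 against 3.23 and 10.3. NOTCH3 was lower at 13.8 and 15.5 against 122 and 409. The Wnt list had 2 of 22 higher and 7 lower, and the Notch list 1 of 10 higher and 3 lower. The TGF-beta and BMP list had 5 of 31 higher and 6 lower, with a median of -0.29 and a mean of 0.05. Of all compared genes 11.2% were higher and 15% lower, so the genes above are given as single values. Among lncRNAs LINC02577 was far up, at 17.0 and 16.4 against 0.219 and 0.124, and LINC00839 far down, listed at 0 in both R-U87MG libraries and at 8.97 and 7.71 in the U87MG libraries.

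Other lists had few called genes or calls in both directions between the si-NC libraries, and some had more in the other libraries. Of all compared genes 11.2% were higher and 15% lower between the si-NC libraries, and 15.9% and 16.3% in the other libraries. Of 47 cytosolic ribosomal protein genes 1 was higher and none lower (median log2 ratio 0.29), while 13 were called higher in R-U87MG si-HDAC6 against U87MG si-LINC00461 (median 0.76). Of 17 genes of the CCR4-NOT complex and poly(A) binding none was higher and 1 lower (median 0.07). Of 30 genes of cholesterol and fatty acid synthesis 2 were higher and 2 lower (median 0.47), and in the other libraries 12 were higher and 1 lower (median 0.79). Of 27 genes of the ATF4 and unfolded protein responses 4 were higher and 2 lower (median 0.17), and in the other libraries 12 were higher and 1 lower (median 0.82). Immediate early and AP-1 genes had 5 of 30 higher and 7 lower, YAP and TAZ targets 2 of 22 higher and 4 lower (9 and 3 in the other libraries), and matrix proteases and their inhibitors 4 of 23 in each direction. Of 19 cytokines and chemokines 5 were higher and 4 lower. IL1B, an inflammatory cytokine, was at 37.7 and 55.0 normalised CPM in the R-U87MG libraries and at 228 and 3036 in the U87MG libraries, and F3, tissue factor, at 30.9 and 31.2 against 431 and 411. SERPINB2, a plasminogen activator inhibitor, was at 120 and 129 against 24.5 and 115. Its log2 ratio was 2.29 between the si-NC libraries and 0.16 in the other libraries. Of 12 genes of the BCL2 family 2 were higher, and of 13 mitochondrially encoded genes 1 was higher and 1 lower. The mitochondrial genes had a median log2 ratio of -0.55, and -0.61 in the other libraries, with a summed level of 25793 normalised CPM in R-U87MG si-NC and 39189 in U87MG si-NC. Only 1 of 6 blood, 2 of 5 endothelial and 3 of 6 epithelial markers were compared, and none was called. In the other libraries 1 endothelial and 1 epithelial marker were called lower. Both compared neuron markers and the 1 compared oligodendrocyte marker were lower between the si-NC libraries. Neuron markers summed to 26 and 20.47 normalised CPM in the R-U87MG libraries and 67.0 and 140 in the U87MG libraries, and their part in these differences was not tested.

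Position on the chromosomes was described with medians over 256 blocks of about 50 neighbouring compared genes. In 10 blocks the median log2 ratio was at least 0.5 and in 6 it was at most -0.5, while 193 lay within 0.25 of 0. The 2 highest were the first blocks of chromosome 20, from 270863 to 5611026 and from 5750393 to 23373063, with medians of 1.02 and 1.37 and 26 and 36 of 50 genes higher. The next blocks of chromosome 20, from 23374519 on, had medians between -0.28 and 0.08. Chromosome 14 had a median of 0.50 and 117 of 464 genes higher (25.2%, against 11.2% of all compared genes). The first 5 blocks of chromosome 14 had medians from 0.51 to 0.72, and the other 4 from 0.16 to 0.35. A pair of neighbouring blocks on chromosome 1, from 163266576 to 193060080, stood at 0.85 and 0.55, and a block on chromosome 4 at 0.54. Low blocks lay on chromosomes 5, 8, 18, 19 and 22. On chromosome 19 from 51331536 to 55617269 the median was -1.01, with 25 of 50 genes lower, among them HAS1, CACNG8 and 8 of the 18 ZNF genes there. On chromosome 8 from 22106872 to 28490318 the median was -0.80 with 22 of 50 lower. The block on chromosome 5, at -0.52, held 19 clustered protocadherins, and its other 31 genes had a median of -0.07. In R-U87MG si-HDAC6 against U87MG si-LINC00461 12 of these 16 blocks again lay at least 0.5 from 0 in the same direction, and the first blocks of chromosome 20 stood at 0.90 and 1.42. SRXN1 and PCNA lie in the first block of chromosome 20, and APEX1 lies in the first block of chromosome 14. Other named higher genes in high blocks include ABCG2, in the block of chromosome 4, and FANCM, among the first 5 blocks of chromosome 14. LOXL2 lies in the low block of chromosome 8.

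**Figure D4:**
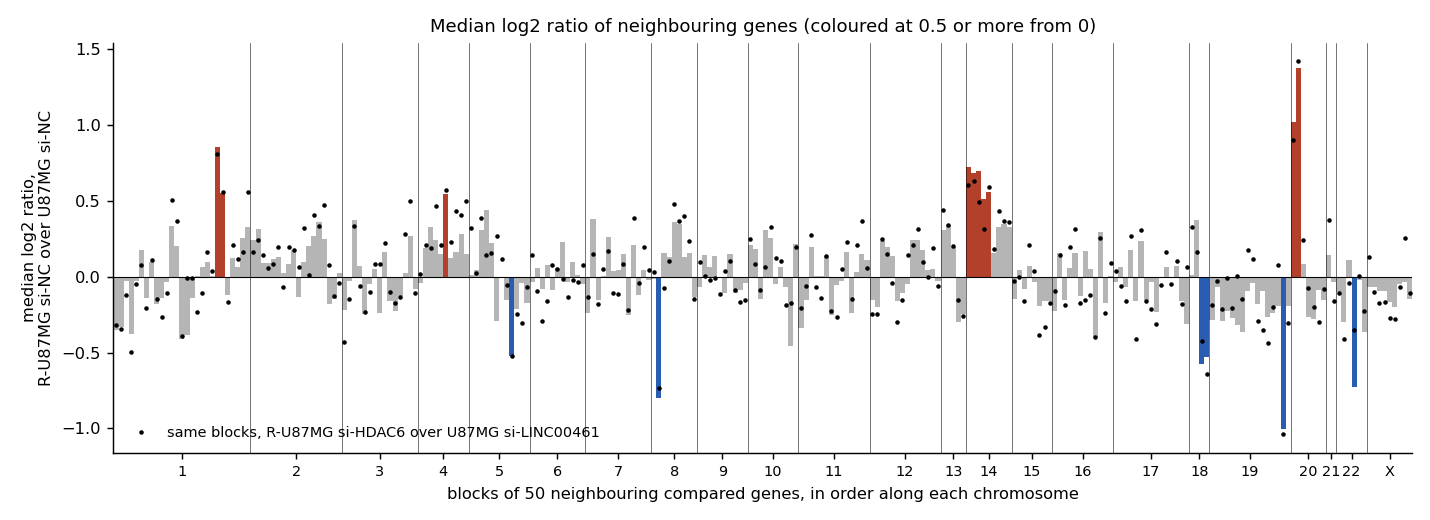
Median log2 ratio of R-U87MG si-NC over U87MG si-NC (y axis) of blocks of 50 neighbouring compared genes in order along each chromosome (x axis); bars at least 0.5 from 0 are coloured and black dots are the same blocks in the other 2 libraries. The runs of coloured bars on chromosomes 14 and 20 reach 0.72 and 1.37, and the dots of chromosome 20 follow them at 0.90 and 1.42.

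The ratio also moved with the make-up of the transcripts. The median log2 ratio was 0.20 in the lowest of 10 equal bins of exonic GC content (bin median 36.9%) and -0.36 in the highest (63.5%), and 0.25 in the shortest of 10 bins of length and -0.23 in the longest. The same end bins of GC content had medians of 0.30 and -0.24 in the other 2 libraries. After centring the ratios in bins of GC content and length, 1421 genes were higher and 1881 lower.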

How the data were processed

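RNA-seq was done by the authors on 4 libraries, 1 per line and siRNA. The labels name bcl2fastq, Trimmomatic 0.36 and HISAT2 with GRCh38.p13, and the counting program is not given in the sources used here. The deposited values are expected counts by Ensembl ID, and were taken as multiplied by 1 factor in each library. That factor was inferred from the most frequent low value of the library. Each value was divided by that factor and rounded. Values were taken as whole within 0.02, and 94.2% to 94.5% of the values above 0 were. Symbols and positions came from GENCODE 29, which holds 57875 of the 58213 IDs.

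The si-NC pair and the other pair were each scaled by TMM (edgeR 4.0.16, R 4.3.3). Genes with a mean of at least 1 CPM over the library totals were compared at 2-fold, with 0.5 added to each count and exact 95% Clopper-Pearson intervals, which cover counting error only. The calculation was tested on simulated data. With 1 library per group no test of the lines was possible. The named genes were the 15 protein-coding genes and 4 lncRNAs furthest each way by the interval end nearest 0, up to 3 called members of each list, and 13 genes of TMZ response, GBM and the study; other members are named as examples, chosen after their values were seen. Some genes that the rule names are not reported here. Members and lists were chosen with earlier results of these data known. Python 3.11.15, numpy 2.4.6, pandas 2.3.3, scipy 1.17.1, matplotlib 3.10.9 and DESeq2 1.42.0 (alternative size factors) were used.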

Additional observations from a re-analysis of the deposited data

How the results depend on the processing

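The counts of 1494 higher and 2008 lower genes stayed within 1.5 times in 27 of 36 recomputed values. The exceptions for higher genes were 2399 with total counts, 2400 with the deposited values over the column total, 4772 without a filter on low counts, 3077 at 1.5-fold, 288 at 4-fold, and 846 with the interval wholly beyond 2-fold. For lower genes they were 5793 without the filter, 3346 at 1.5-fold and 757 at 4-fold. Blocks of 25 genes gave 21 high and 24 low blocks in place of 10 and 6. Under total counts and under the deposited values, the median of the Wnt list turned to 0.031 and 0.0318 and that of the astrocyte and glioma markers to 0.0468 and 0.0468, and under total counts that of chromosome 19 to 0.0503. With a mean in place of the median the TGF-beta and BMP list was at 0.0519. At a mean CPM of at least 5 the cancer-testis list kept 1 gene, at 2.84. In R-U87MG si-HDAC6 against U87MG si-LINC00461 the medians of aldehyde dehydrogenases (0.12), AP-1 genes (-0.17) and DNA methylation machinery (0.37) turned sign, as did CSF2 (1.61), SCD (0.0543), ACACA (-0.00867), HOXA4 (0.0516), COL3A1 (-0.0429) and LINC00461 (0.34), the last being the gene silenced there; for the others the cause was not tested. Leaving out genes listed at 0, an alternative chosen after seeing the data, gave 1480 and 1941. No paired analysis was possible because each group has 1 library. Depth limits genes near 3 fragments, such as MGMT.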
